A study of Mus musculus with 6 samples.

Results

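Mouse embryonic stem cells in which either of 2 hairpins against Pcgf6 had been switched on with doxycycline (dox) were compared with cells in which a scrambled hairpin had been switched on. All were V6.5 cells, an established embryonic stem cell line, and each array measured total RNA of 1 sample. The comparison uses 3 of the 6 arrays of the series: hairpin 1 with dox, hairpin 2 with dox, and the scrambled hairpin with dox, dox being given at 1 µg/ml. The other 3 arrays are the same constructs without dox. In the fit, only the 2 uninduced hairpin arrays added to the comparison, by helping to estimate the spread between arrays. All 3 also counted in the 6-array mean that chose the probe set of a gene. Their own difference (uninduced hairpins against uninduced scrambled) is given beside the comparison. Per the labels' protocols, stem cells grew on mitomycin-inactivated mouse embryo fibroblasts with leukemia inhibitory factor, so a sample can hold RNA from feeder cells. The protocols also describe embryoid body differentiation, but the 6 samples are labelled as embryonic stem cells. Each hairpin in each condition is 1 array, the control is 1 array per condition, and nothing in the labels says that samples came from separate cultures or clones. The p-values therefore rest on the spread of these few samples alone, part of which may be technical, and the scrambled arrays are assumed to vary like the hairpin arrays.

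Pcgf6 encodes a RING-finger-like polycomb protein that defines the variant repressive complex PRC1.6. In this complex Pcgf6 sits with the E3 ligases Ring1 and Rnf2, which ubiquitylate histone H2A, with the reader protein L3mbtl2, and with the DNA-binding pairs Mga and Max, which recognise the E-box, and E2f6 and Tfdp1, which recognise E2F sites. In mouse embryonic stem cells PRC1.6 is best known for holding germ-cell and meiosis genes silent. Loss of Pcgf6 has also been tied to the balance between pluripotency and mesodermal differentiation, and the title of the series speaks of mesodermal differentiation and of reprogramming.

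Values are log2 expression as deposited, so a difference of 1 between groups means one group is at 2-fold the level of the other. One probe set stood for each gene, and 19938 genes were tested. A gene is said here to be higher or lower only where limma's adjusted p was under 0.05. By that rule 39 genes (0.196% of those tested) differed between the induced Pcgf6 hairpins and induced scrambled: 36 were higher (0.181%) and 3 were lower (0.015%). Without a test, 287 genes (1.44%) were at least 1.5-fold higher in the mean of the hairpins and 52 (0.261%) at least 1.5-fold lower. The median difference over all genes was 0.01, with 10299 of the 19938 above 0 and 9639 below. With the hairpin number as a replicate block, 66 genes passed, 61 higher and 5 lower. Leaving out either uninduced hairpin array left 19 genes; without induced hairpin 1 36 passed, and without induced hairpin 2 29 passed.

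Among the higher genes, 19 belonged to 5 lists of germ-cell genes that hold 96 measured genes in all, and 3 belonged to a list of 10 measured genes of the two-cell-like state. The remaining 14 were in no list. The 3 lower genes were Pcgf6 itself, AU015836 and Fgf5. No gene of the pluripotency, mesoderm, feeder or inflammation lists passed. The lists were drawn up with earlier results of these data known, so their counts describe these arrays.

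Since the DNA-binding partners of Pcgf6 read short motifs, the promoters of the higher genes are shown first. RefSeq promoter windows (GRCm38.p6, 250 bases before to 50 after a transcript's start, 300 bases in all) were at hand for 32 of the 36 higher genes; Tex11 was not among them. Motifs were searched on both strands: the E-box CACGTG, the E2F motif TCCCGC and, as a further motif, the T-box element AGGTGTGA. No matches overlapped in the windows of the higher genes. A window with an E-box was found for 13 of the 32 higher genes (40.6%), against 1481 of 15563 tested genes with a window (9.52%). The 13 are Mael, Slc25a31, Ddx4, Mov10l1, Taf7l, Ct55, Rbm46, Boll, Sycp1, Tent5d, Gpx6, Tdrd1 and 4930447C04Rik. An E2F motif was found for 10 (31.2%), against 30.5% of tested genes. The T-box element was found for 0, against 1.3%. Both an E-box and an E2F motif in one window were found for 6 higher genes (18.8%), against 3.35% of tested genes. Of the 79 germ-cell list genes with a window, whether or not they were higher, 23 (29.1%) held an E-box and 34 (43%) an E2F motif. Both motifs in one window were found for 11 of the 79 (13.9%). These are matches of letters, not sites of binding.

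The first 4 windows are those of the 4 highest genes that have one. Mael (chr1:166238695-166238994, minus strand) and Slc25a31 (chr3:40708621-40708920, plus strand) hold an E-box and an E2F motif, and Rhox13 (chrX:38120590-38120889, plus strand) and Syce1 (chr7:140787805-140788104, minus strand) hold neither. Tex13b and Tex16, next in order, hold none of the motifs either. Each sequence reads 5′ to 3′ along the strand of its gene, and capitals mark the E-box CACGTG and the E2F motif TCCCGC or its reverse complement GCGGGA.

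Mael: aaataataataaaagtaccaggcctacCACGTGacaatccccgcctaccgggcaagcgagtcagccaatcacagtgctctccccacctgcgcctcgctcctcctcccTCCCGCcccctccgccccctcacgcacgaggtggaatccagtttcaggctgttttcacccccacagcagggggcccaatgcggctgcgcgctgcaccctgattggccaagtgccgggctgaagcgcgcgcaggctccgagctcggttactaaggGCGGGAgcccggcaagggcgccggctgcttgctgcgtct

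Slc25a31: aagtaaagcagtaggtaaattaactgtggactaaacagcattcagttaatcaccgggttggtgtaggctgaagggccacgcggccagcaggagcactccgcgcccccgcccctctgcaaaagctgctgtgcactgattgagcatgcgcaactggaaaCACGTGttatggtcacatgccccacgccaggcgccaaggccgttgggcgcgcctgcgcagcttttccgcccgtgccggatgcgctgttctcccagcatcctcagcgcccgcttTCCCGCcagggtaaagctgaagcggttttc

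Rhox13: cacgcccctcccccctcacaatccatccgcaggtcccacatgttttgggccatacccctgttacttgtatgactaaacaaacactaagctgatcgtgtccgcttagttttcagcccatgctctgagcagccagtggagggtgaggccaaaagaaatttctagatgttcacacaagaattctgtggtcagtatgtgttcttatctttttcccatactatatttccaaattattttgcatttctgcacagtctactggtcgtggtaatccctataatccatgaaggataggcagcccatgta

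Syce1: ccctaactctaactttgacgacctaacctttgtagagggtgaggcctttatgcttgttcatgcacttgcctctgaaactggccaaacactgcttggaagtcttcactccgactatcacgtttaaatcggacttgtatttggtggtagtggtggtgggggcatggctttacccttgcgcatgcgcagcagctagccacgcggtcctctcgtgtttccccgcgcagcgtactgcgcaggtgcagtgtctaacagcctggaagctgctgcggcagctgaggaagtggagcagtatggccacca

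Ddx4 (chr13:112652261-112652560, minus strand), Rbm46 (chr3:82876434-82876733, minus strand) and Sycp1 (chr3:102936051-102936350, minus strand) were added after the motif search because they also hold both motifs, as does 1 of the 2 windows of Tent5d, not shown. Counted from the start of the transcript, the E-box begins at -223 in Mael, -93 in Slc25a31, -29 in Ddx4, -34 in Rbm46, -94 in Sycp1 and -18 in Tent5d. It thus lies anywhere from the far end of the window to close to the start.

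Ddx4: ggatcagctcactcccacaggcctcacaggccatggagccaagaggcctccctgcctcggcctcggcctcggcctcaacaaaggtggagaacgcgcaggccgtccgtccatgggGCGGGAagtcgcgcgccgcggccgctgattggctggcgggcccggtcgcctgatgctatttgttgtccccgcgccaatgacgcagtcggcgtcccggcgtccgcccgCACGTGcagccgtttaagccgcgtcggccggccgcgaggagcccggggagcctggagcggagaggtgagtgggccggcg

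Rbm46: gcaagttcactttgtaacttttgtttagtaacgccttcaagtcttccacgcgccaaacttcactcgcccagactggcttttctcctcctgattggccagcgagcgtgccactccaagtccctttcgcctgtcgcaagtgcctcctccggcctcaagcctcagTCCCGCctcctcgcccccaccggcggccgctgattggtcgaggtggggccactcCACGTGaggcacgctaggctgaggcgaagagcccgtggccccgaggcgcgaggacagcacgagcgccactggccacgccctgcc

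Sycp1: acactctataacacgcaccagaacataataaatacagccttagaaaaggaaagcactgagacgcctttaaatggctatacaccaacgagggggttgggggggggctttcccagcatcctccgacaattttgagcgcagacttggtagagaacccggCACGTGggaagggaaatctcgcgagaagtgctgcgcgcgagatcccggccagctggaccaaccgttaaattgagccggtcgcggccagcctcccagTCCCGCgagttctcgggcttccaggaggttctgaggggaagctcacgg

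The knockdown was checked first. Pcgf6 (chromosome 19, probe set 10468275) read 9.39 with induced hairpin 1 and 9.27 with induced hairpin 2, against 11.82 with induced scrambled. Without dox it read 11.56, 11.70 and 11.80 in the same order. The 2 induced hairpin arrays were low and the 4 other arrays lay close together above them. The induced difference was -2.50 (SE 0.12), a level 5.64-fold lower (limma, adjusted p = 0.00185), and the uninduced difference was -0.17. The targeted gene thus goes with the labels.

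The other measured parts of PRC1.6 did not pass. Of the 16 genes in the list 1 was lower, Pcgf6, and the median difference was -0.01. E2f6, the repressive E2F of the complex, read 10.07 and 10.00 against 9.60 (difference 0.44, adjusted p = 0.433). Mga, the scaffold that binds the E-box with Max, read 10.64 and 10.50 against 10.91 (-0.34, adjusted p = 0.609). L3mbtl2 differed by -0.07, Rnf2 by -0.01, Ring1 by -0.01, Max by -0.08 and Tfdp1 by -0.03, none of them passing.

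Values of 2 kinds stand beside all that follows. The stem cell markers Pou5f1, Sox2, Nanog, Zfp42, Dppa5a, Esrrb and Utf1 all lay above the upper quartile on each induced array (11.2 to 12.9, the quartile being 9.42 to 9.44), and their induced differences ran from -0.24 to 0.03. Genes of feeder fibroblasts were detected too. The mean over 26 feeder genes, among them the collagens Col1a1 and Col3a1, the small proteoglycans Dcn and Lum, and Thy1, Postn and Pdgfrb, was 10.33 with induced hairpin 1, 10.62 with induced hairpin 2 and 10.03 with induced scrambled. Without dox it was 10.33, 10.20 and 9.50. Feeder genes were thus lowest on both scrambled arrays, with 25 of 26 above 0 in the induced difference and 25 of 26 above 0 in the uninduced one, and none passing. The medians of the list were 0.45 and 0.82. In bulk RNA, fewer cells of a type and less RNA per cell cannot be told apart.

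With each array's mean of the feeder genes as a covariate, which leaves 1 residual degree of freedom, no gene passed (428 had an unadjusted limma p under 0.05, and the smallest adjusted p was 0.0896). All 36 higher genes still had a difference above 0 there, from 0.83 to 4.12, with a median of 1.57 against 1.55 without the covariate. Pcgf6, the targeted gene, did not pass there either. Its difference was -2.25, with an SE of 0.25 against 0.12 without the covariate. The part of feeder cells in the calls was not tested.

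The piRNA pathway makes small RNAs that keep transposable elements silent in the germ line, through Piwi proteins, Tudor-domain proteins and RNA helicases. Of 24 measured genes, 6 were higher and none lower, and 18 did not pass. Above 0 lay 20 of the 24. Over all 19938 tested genes, 36 were higher and 10299 lay above 0. The median difference was 0.20, against -0.04 without dox.

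Mael, a protein of the germ granule that is needed for transposon silencing, read 10.77 and 10.78 with the induced hairpins and 8.08 with induced scrambled, and 8.80, 8.79 and 8.74 without dox. Both induced hairpins were far above the 4 other arrays, and induced scrambled was the lowest of the 6. The difference was 2.69 (SE 0.10), or 6.47-fold (limma, adjusted p = 0.000622).

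Ddx4, the germ-cell RNA helicase also called Vasa, read 11.01 and 10.92 against 9.08, with 9.30, 9.20 and 8.98 without dox (difference 1.89, limma adjusted p = 0.00466). The induced hairpins lay above the 4 other arrays, an order that 11.1% of tested genes show. Piwil2, a Piwi protein, read 9.80 and 9.84 against 8.31, with 8.37, 8.35 and 8.49 without dox (1.51, limma adjusted p = 0.0058).

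Mov10l1, the helicase that starts piRNA processing, was higher by 1.88, Tdrkh, a Tudor-domain protein that holds Piwi proteins at mitochondria, by 1.79, and Tdrd1, another Tudor-domain protein, by 1.14. Of these Tdrd1 alone passed in none of the 4 fits that left out 1 hairpin array each. Tdrkh did not pass when either uninduced hairpin array was left out. Piwil1 and Piwil4, the other Piwi genes, were named after their values were seen and differed by 0.18 and 0.17, neither passing.

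**Figure D1:**
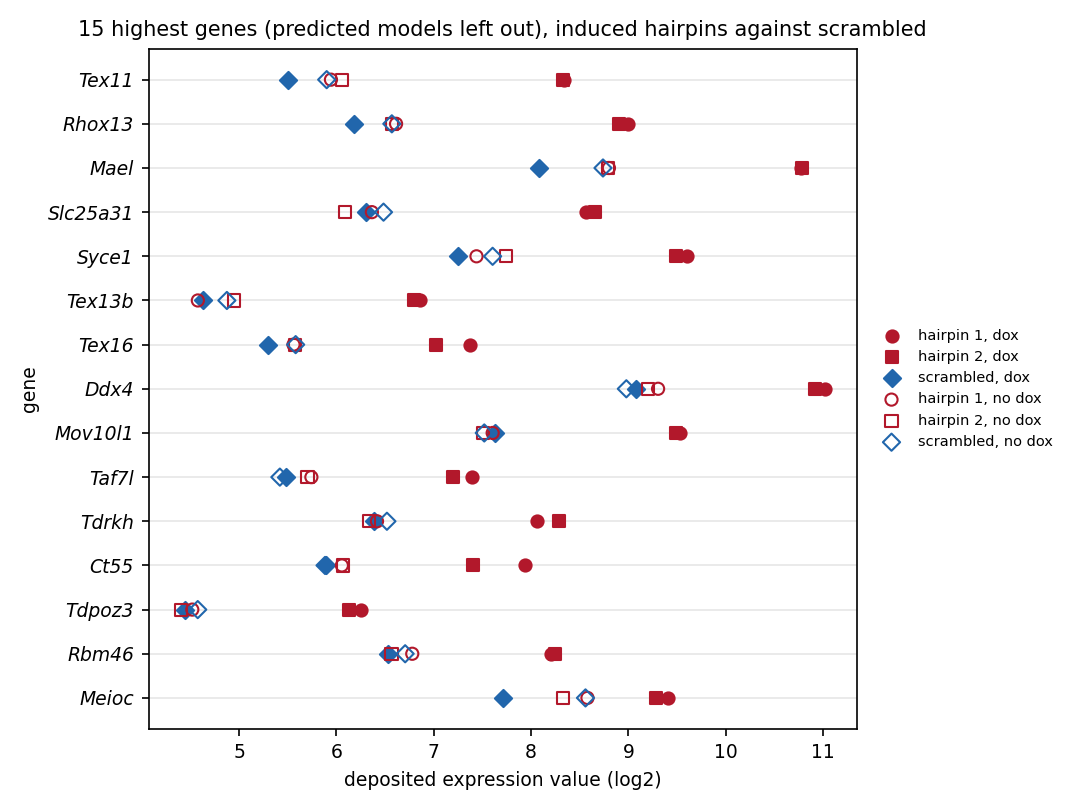
Deposited log2 expression (x axis) of the 15 highest genes by the smaller of the 2 hairpins' differences from induced scrambled, predicted gene models left out, with 1 point per array; filled symbols are arrays with dox, open symbols arrays without. The genes were chosen for filled red symbols (both induced hairpins) to the right of the filled blue one; in Mael they sit at 10.77 and 10.78 against 8.08 for induced scrambled.

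Proteins of the synaptonemal complex and the chromosome axis pair homologous chromosomes in meiosis. Of 12 measured genes of this kind, 4 were higher and 8 did not pass, against 36 higher among all 19938 tested genes. Above 0 lay 11 of the 12, against 10299 of all. The median difference was 0.70, against -0.06 without dox. Syce1, of the central element, read 9.60 and 9.49 against 7.25, with 7.44, 7.74 and 7.60 without dox, a difference of 2.3 (SE 0.15, limma adjusted p = 0.0058). Both induced arrays lay well above the rest.

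Hormad2, a protein of the unsynapsed axis, was higher by 1.5, Sycp1, the transverse filament, by 1.48, and Sycp2, of the lateral element, by 1.24. Leaving out either uninduced hairpin array left 2 calls in the list, Syce1 and Hormad2, and Sycp2 passed in none of the 4 fits that left out 1 hairpin array. Sycp3, the partner of Sycp2, read 8.05 and 8.33 against 6.93 but 7.51, 8.02 and 8.09 without dox. Uninduced arrays reached the level of the induced hairpins, and the low value was that of induced scrambled. Its difference, 2.38-fold, did not pass (adjusted p = 0.207). The meiotic cohesin genes Rec8, Smc1b and Stag3 were named after their values were seen and differed by 0.11, 0.07 and 0.02.

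In the list of recombination and meiotic entry, 2 of 22 genes were higher, Tex11 and Meioc, against 36 of all 19938 tested genes. Above 0 lay 21 of the 22, against 10299 of all (list median 0.21, and -0.11 without dox). Tex11, an X-linked protein that promotes crossovers, read 8.34 and 8.33 against 5.51, with 5.94, 6.05 and 5.90 without dox. The difference of 2.83 (SE 0.11, 7.11-fold, limma adjusted p = 0.000622) was the highest in the test by gene other than that of the predicted gene Gm5662. The induced hairpins differed by far less than their distance to the 4 other arrays.

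Meioc, which keeps germ cells in the meiotic programme by acting on RNA, read 9.41 and 9.29 against 7.71, with 8.58, 8.33 and 8.56 without dox (difference 1.64, limma adjusted p = 0.0147). Induced scrambled was below uninduced scrambled there, and with both scrambled arrays as the control Meioc did not pass. Rec114, of the machinery for DNA breaks, differed by 0.64 and Tex15 by 0.61, neither passing.

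Among germ-cell RNA regulators and transcription factors 2 of 21 genes were higher, against 36 of all 19938 tested genes. The list's median of 0.04 was close to that of all genes. Boll, an RNA-binding protein of the Dazl family, was higher by 1.59 and Sohlh2, a basic helix-loop-helix factor of early germ cells, by 1.54. Without either uninduced hairpin array both missed the threshold (limma adjusted p = 0.0886 and 0.0681), and 0 of the 21 passed. Dazl read 8.36 and 8.38 against 7.49, with 7.37, 7.48 and 7.62 without dox, and Dmrt1, a sex-determination factor, read 9.44 and 9.36 against 8.44, with 8.62, 8.47 and 9.01. Their differences of 0.88 and 0.96 lay just above the threshold (adjusted p = 0.054 and 0.0527). In both genes the induced hairpins were above all other arrays, an order that 11.1% of tested genes show. That order counts in the difference itself, so it is a description.

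The list of further testis-expressed genes had 5 of 17 genes higher, against 36 of all 19938 tested genes. Its median was 0.70, against -0.01 without dox. Rhox13, an X-linked homeobox gene of germ cells, read 9.0 and 8.90 against 6.18, with 6.61, 6.57 and 6.57 without dox (difference 2.77, SE 0.11, 6.82-fold, limma adjusted p = 0.000622). Its 4 other arrays lay within a narrow band below.

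Slc25a31, the testis form of the mitochondrial ATP and ADP carrier, read 8.57 and 8.66 against 6.31, with 6.36, 6.09 and 6.48 without dox (difference 2.31, limma adjusted p = 0.00518). Taf7l, a germ-cell form of a TFIID subunit, was higher by 1.82, Tex13b by 2.2 and Tex16 by 1.90, and these 3 genes are X-linked. Of them, Tex16 did not pass when either uninduced hairpin array was left out. Ldhc, the sperm lactate dehydrogenase, and Pgk2, a sperm glycolytic enzyme, both named after their values were seen, differed by -0.10 and 0.08 and did not pass.

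Over the 5 germ-cell lists together, 19 of 96 measured genes were higher and none lower, and 77 lay above 0. For all 19938 tested genes these counts were 36 higher, 3 lower and 10299 above 0. The median difference of the lists was 0.23, against 0.01 for all genes and -0.06 for the same lists without dox. Of the 19, 12 passed in each of the 4 fits that left out 1 hairpin array. The count was 24 with the replicate block, 12 without either uninduced hairpin array, 17 and 18 when induced hairpin 1 or 2 was left out, 22 with both scrambled arrays as control and 6 without the dimmest 50% of genes. The last setting left 36 of the 96 genes in the test.

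**Figure D2:**
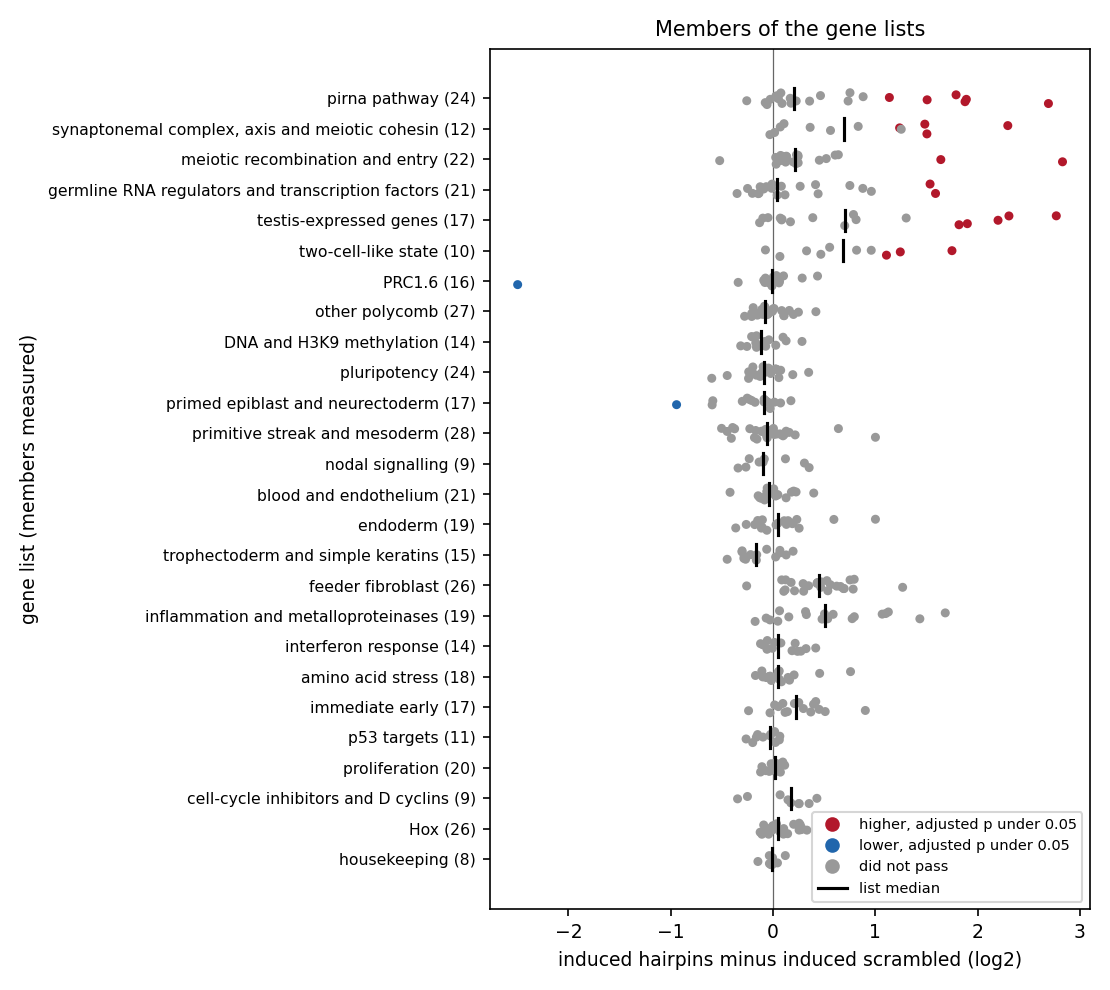
Difference between induced hairpins and induced scrambled (x axis, log2) for each measured member of 26 gene lists (rows, number measured in brackets), 1 point per gene, with the list median as a bar. Red points passed as higher and lie in the germ-cell and two-cell-like lists, the blue points are Pcgf6 at -2.50 and Fgf5 at -0.94, and the grey points of the feeder list lie mostly to the right of 0 (median 0.45).

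Genes of the two-cell-like state mark rare embryonic stem cells that resemble the embryo just after its genome is switched on. Most such genes lie in families of near-identical copies, and probe sets with a single symbol existed for 10 of 22. Of these 10, 3 were higher, against 36 of all 19938 tested genes, and 9 lay above 0, against 10299 of all. The median of the list was 0.69, against -0.15 without dox. Tdpoz3 read 6.25 and 6.13 against 4.44, with 4.52, 4.40 and 4.57 without dox (difference 1.75, limma adjusted p = 0.0058). Zfp352, a zinc-finger gene of the early embryo, read 6.57 and 6.56 against 5.32, with 5.6, 5.80 and 5.44 without dox (1.24, limma adjusted p = 0.0221). Usp17la, a deubiquitinase gene, read 5.99 and 5.88 against 4.82, with 4.87, 4.84 and 5.43 (1.11, limma adjusted p = 0.0221). The assignment of Tdpoz3 and Usp17la to 1 copy of their family is uncertain, since copies can share probes.

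Without the dimmest 25% of genes, none of the 4 two-cell-like genes left in the test passed, and 1 gene of the list passed in each fit that left out a hairpin array. The 3 higher genes were not among those 4, since the filter took them out as dim, so they were not tested again there. On induced scrambled Tdpoz3, Zfp352 and Usp17la read 4.44, 5.32 and 4.82, below the lower quartile of the arrays (5.5 to 5.56). Probe sets shared by 5 Zscan4 copies, Zscan4a, b, c, d and f, were looked at after their values were seen, outside the test by gene. The first of them read 9.76 and 9.90 with the induced hairpins and 6.38 with induced scrambled, and 7.29, 7.62 and 7.06 without dox. The 3 probe sets differed by 3.45, 3.45 and 3.53 (limma adjusted p = 0.036 over all probe sets). Induced scrambled was the lowest array and the induced hairpins were the highest.

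A further group of higher genes was in no list, and their names come from the count itself. Gm5662, a predicted gene, had the highest difference among probe sets with a single symbol, 3.47 (SE 0.40, limma adjusted p = 0.0472), and did not pass when either induced hairpin was left out. It read 7.88 and 7.88 against 4.42, but its uninduced arrays were spread, at 4.76 and 5.89 for the hairpins and 4.76 for scrambled. Rbm46, an RNA-binding protein needed for meiosis, was higher by 1.70, Ddx43, a germ-cell helicase, by 1.53, Ct55, a cancer/testis gene on the X chromosome, by 1.78 and Tent5d, a germ-cell nucleotidyltransferase, by 1.20. H2ac1, a histone H2A gene of germ cells, read 12.77 and 12.80 against 11.78, with 12.48, 12.51 and 12.46 without dox, so that induced scrambled stood apart from the 5 other arrays and the difference of 1.00 (limma adjusted p = 0.0267) was lost with both scrambled arrays as control. Histone genes share sequence, so its assignment is uncertain. Gstm5, a glutathione transferase, was higher by 1.07, Obi1, a ubiquitin ligase of replication origins, by 1.17 and Pls1, an actin-bundling protein, by 0.96. Pls1 too was lost with both scrambled arrays as control. Ct55 and Tent5d did not pass with quantile normalization (limma adjusted p = 0.0517 and 0.0728). Nor did they pass without the dimmest 25% of genes (limma adjusted p = 0.062 and 0.0577). Ct55 also did not pass when either uninduced hairpin array was left out. H2ac1, Gstm5, Obi1 and Pls1 passed in none of the 4 fits that left out 1 hairpin array, and Tent5d passed in 1.

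Across the 36 higher genes the differences ran from 0.96 to 3.47 with a median of 1.55. The median gap between the hairpins was 0.10 and the largest 0.53, in Ct55; a small gap is part of what lets a gene pass. Of the 36, 9 (25%) lie on the X chromosome, against 739 of all tested genes (3.71%). In all 36 both induced hairpins lay above the 4 other arrays, an order that 11.1% of tested genes show. The 36 were chosen by the difference in which that order counts, so it is a description.

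The control rests on a single array. Induced scrambled was the lowest of the 6 arrays for 26 of the 36 higher genes, against 16.2% of tested genes. It was below uninduced scrambled for 31 of the 36, against 53.4% of tested genes, and its median difference from uninduced scrambled over the 36 was -0.25. A low induced scrambled value is part of what lets a gene pass as higher, so these counts too are a description. The induced hairpins were above their own uninduced arrays by a median of 1.41. With both scrambled arrays as 1 control group, 71 genes passed (59 higher, 12 lower), among them 32 of the 39 called genes. The called genes that did not pass there were Meioc, 4930447C04Rik, Gpx6, Usp17la, H2ac1, Pls1 and Fgf5.

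The 3 induced and the 3 uninduced arrays are separate samples, so the difference between hairpin and scrambled cells could be set beside the one seen before dox. Without dox no gene passed (limma, 1607 genes with an unadjusted p under 0.05, smallest adjusted p = 0.183), and 17 passed with the replicate block. Of tested genes 360 (1.81%) were at least 1.5-fold higher and 35 (0.176%) at least 1.5-fold lower in the uninduced hairpins. Of those, 117 higher genes were also at least 1.5-fold higher with dox, which is 40.8% of the induced and 32.5% of the uninduced set. Only 3 lower genes were shared, 5.77% of the induced and 8.57% of the uninduced set, and none went opposite ways. Across genes, which are not independent replicates, the 2 differences correlated at 0.377.

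None of the 36 higher genes was among those shared: 32 had an uninduced difference within 0.32 of 0 on the log2 scale and none reached 1.5-fold higher. The change of the difference with dox was tested as such. It passed for 14 genes (0.0702%), of which 13 (0.0652%) were more positive with dox and 1 (0.00502%), Pcgf6, more negative. These 13 were all among the 36 higher genes, 12 of them in the germ-cell and two-cell-like lists and the last the predicted gene Gm4779. The other 23 did not pass that test, so for them a difference from the uninduced state was not shown. The count was 23 with the replicate block, 22 with median centring and 9 without the dimmest 25% of genes. Leaving out induced hairpin 1 gave 4, leaving out induced hairpin 2 gave 3, and leaving out either uninduced hairpin array gave 0, where limma gave 1000 and 1446 genes with an unadjusted p under 0.05.

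**Figure D3:**
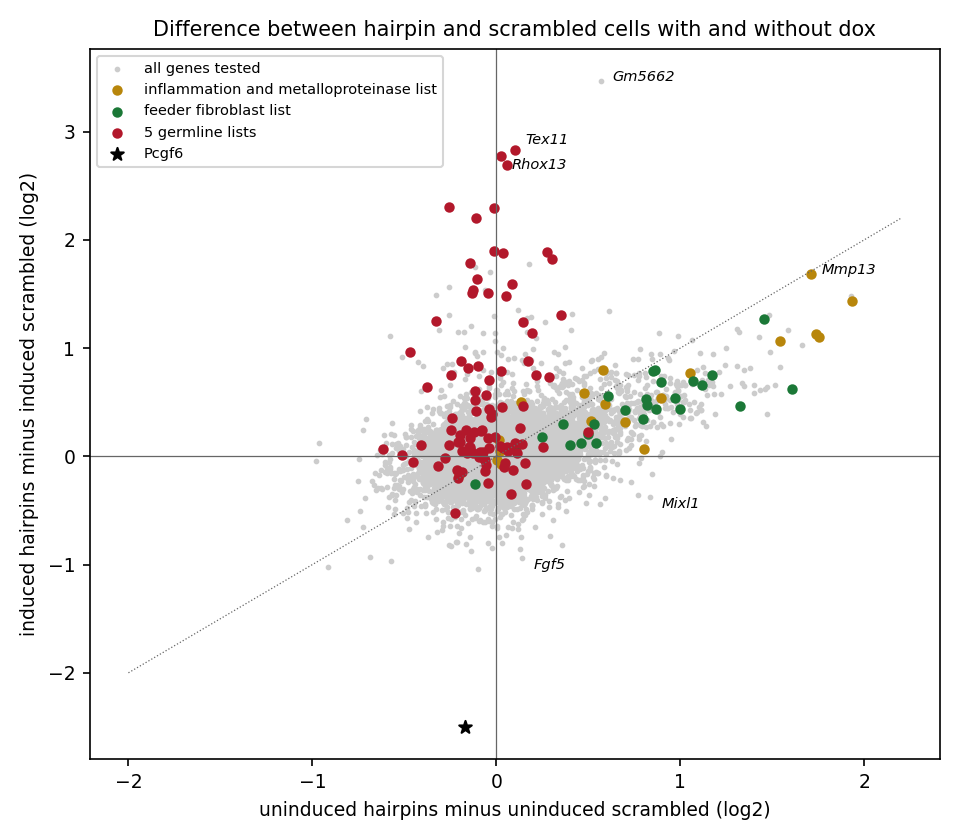
Difference between hairpin and scrambled cells without dox (x axis, log2) and with dox (y axis, log2), 1 point per gene, with the line of equal differences dotted. The highest germ-cell genes (red), led by Tex11 at 2.83, lie along the vertical line at 0, while feeder (green) and inflammation genes (gold) spread to the right on both axes, as Mmp13 does at 1.71 and 1.68.

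The highest named genes that were at least 1.5-fold higher in hairpin cells both with and without dox are given next. Mmp13, a collagenase of connective tissue cells, read 7.94 and 9.90 with the induced hairpins and 7.24 with induced scrambled, and 7.79, 9.10 and 6.74 without dox. Hairpin 2 was the highest in both conditions. Its induced difference of 1.68 did not pass (adjusted p = 0.704), and neither did those of Mcpt8, of the mast cell protease family (1.48), Tac1, a neuropeptide precursor (1.16), Il1rap, a co-receptor of interleukin 1 signalling (0.95) or Crabp1, a retinoic acid binding protein (0.90).

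The inflammation and metalloproteinase list, which holds the chemokines Ccl2 (1.10) and Ccl11 (1.13) and a metalloproteinase, Mmp3 (1.44), had a median of 0.50 with dox and 0.59 without, and none of 19 genes passed. With the replicate block, 4 of the 19 passed. The list mean was 8.35 and 8.93 with the induced hairpins against 8.08, and 8.31, 8.59 and 7.70 without dox, which is the order of the feeder genes in the induced arrays. With the feeder mean as covariate, which leaves 1 residual degree of freedom, the median of the list was -0.05. The part of feeder cells in these values was not tested.

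On the lower side the differences were smaller. Fgf5, a growth factor gene that marks the primed epiblast, read 8.89 and 8.94 with the induced hairpins and 9.86 with induced scrambled. Without dox it read 9.46, 9.38 and 9.28, so that the hairpins were lowest and the induced scrambled array highest of the 6. The difference was -0.94 (SE 0.11, limma adjusted p = 0.0462). It did not pass in any of the 4 fits that left out 1 hairpin array, nor with both scrambled arrays as control, where it was -0.65 (adjusted p = 0.203). AU015836, an X-linked gene, read 9.16 and 9.29 against 10.19, with 9.49, 9.50 and 10.07 without dox. It was low in hairpin cells before dox too: the induced difference was -0.96 (limma adjusted p = 0.0472) and the uninduced one -0.57. Like Fgf5, it passed in none of the 4 fits that left out 1 hairpin array.

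Other genes with a lower level for both hairpins did not pass. Calcoco2, an autophagy receptor, differed by -1.02 with dox and -0.92 without, and a second probe set gave -0.84 with dox. Fabp3, a fatty acid binding protein, differed by -0.93 and -0.69. Foxi3, a forkhead factor, differed by -1.04 but its 2 hairpins read 9.86 and 9.19. Shisa6 (-0.82), Sfmbt2, a polycomb-associated gene of extraembryonic tissue (-0.80), Wnt8a, a Wnt ligand of the early embryo (-0.80), and Aqp3, a water channel (-0.75), had uninduced differences of -0.25, -0.05, 0.03 and -0.37. Induced scrambled was the highest of the 6 arrays in Foxi3, Shisa6, Sfmbt2 and Wnt8a, as it was for 12% of tested genes. These genes were chosen for hairpin values below induced scrambled, so this is a description.

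**Figure D4:**
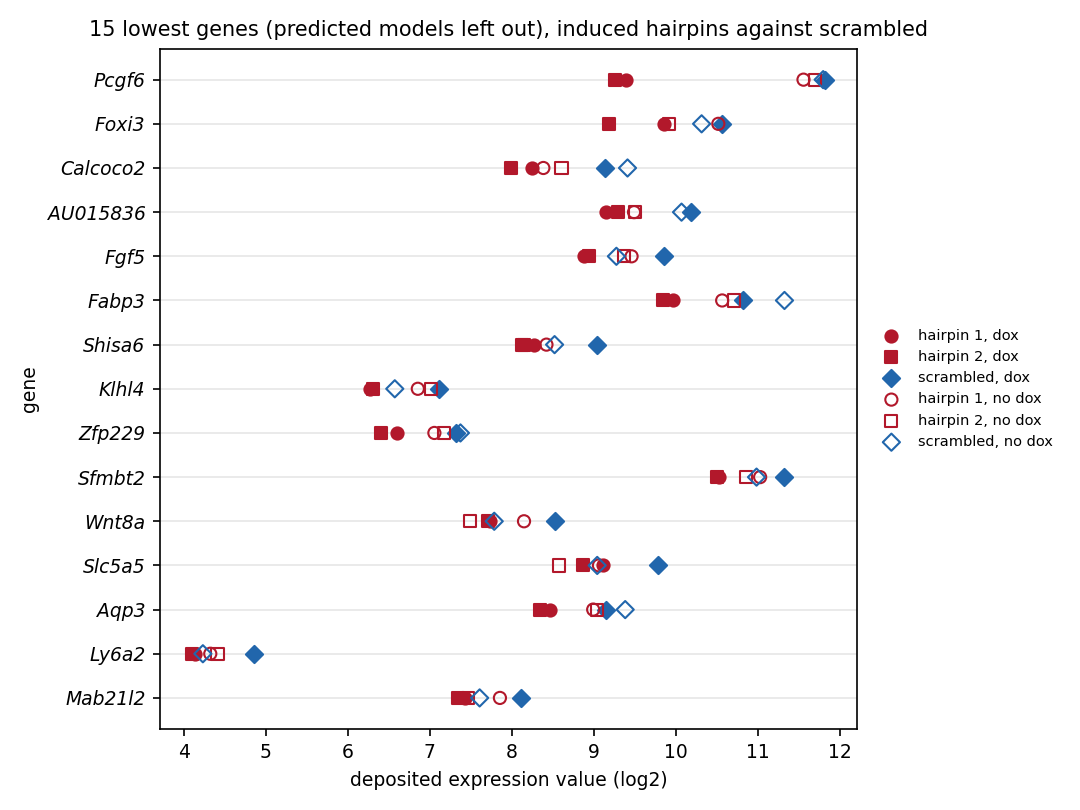
Deposited log2 expression (x axis) of the 15 lowest genes by the smaller of the 2 hairpins' differences from induced scrambled, predicted gene models left out, with 1 point per array; filled symbols are arrays with dox, open symbols arrays without. Pcgf6 stands apart from the rest with 9.39 and 9.27 against 11.82, while in Fgf5, Shisa6 and Wnt8a the filled blue diamond of induced scrambled lies to the right of all other points.

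The primed epiblast list as a whole had 1 of 17 genes lower, Fgf5, and 14 of 17 below 0, with a median of -0.09. Of all 19938 tested genes, 3 were lower and 9639 lay below 0. Zic2, a zinc-finger factor of the primed epiblast, read 10.22 and 10.02 against 10.71, and 10.91, 10.88 and 10.59 without dox (-0.59, adjusted p = 0.311). Nes, an intermediate filament gene of neural progenitors, differed by -0.59 (adjusted p = 0.707). Otx2, named after its value was seen, differed by -0.23.

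In the pluripotency list 0 of 24 genes passed and the median was -0.09. The core factors were close to the control: Pou5f1 differed by 0.02, Sox2 by -0.20, Nanog by -0.24 and Esrrb by -0.04. Klf2, a factor of naive cells, had the lowest value of the list, 10.66 and 10.30 against 11.08 (-0.60, adjusted p = 0.486), followed by Tfcp2l1, also of naive cells, at -0.45 (adjusted p = 0.516). A p that misses the threshold does not show equal levels.

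For mesoderm, 0 of 28 measured genes of the primitive streak and mesoderm list passed, and the median was -0.06 with dox and 0.03 without. Eomes, a T-box factor of the streak, read 9.40 and 9.11 against 9.70 (-0.45, adjusted p = 0.724). Mixl1, a homeobox gene of the streak, read 7.83 and 7.74 against 8.16 with dox, and 7.72, 7.47 and 6.76 without. Its difference was -0.38 with dox and 0.84 without, and the scrambled arrays differed more between the conditions than the hairpin arrays did. Mesp1, the early cardiac mesoderm factor, differed by 0.01. The highest values were those of Pdgfra (1.00) and Wnt5a (0.64), a receptor and a ligand also found in fibroblasts, which did not pass; without dox their hairpin arrays were above the scrambled array too, by 1.47 for Wnt5a.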

How the data were processed

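RNA of 6 samples was hybridised to Affymetrix Mouse Gene 1.0 ST arrays, which read a transcript with a set of probes. The deposited log2 values come from RMA as run by the authors in Affymetrix Power Tools, according to the submitters' processing notes, and their versions are not given in the sources used here. RMA brings arrays to a common distribution, which takes out any shift common to most genes. Array medians lay between 7.02 and 7.08.

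The platform annotation gives 1 gene symbol to 21789 of 35556 probe sets, several to 1621 and none to 12146, and 21698 of the first were found in RefSeq by Entrez identifier. Where a gene had several probe sets (999 genes), that with the highest 6-array mean stood for it. All 19938 genes so obtained were tested without a filter. No couple of arrays had more than 0.0984% of identical values, so all 6 were used.

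limma 3.58.1 in R 4.3.3 fitted 1 mean per group (induced hairpins, n = 2; uninduced hairpins, n = 2; induced and uninduced scrambled, n = 1 each) with 2 residual and 4.44 prior degrees of freedom. Two-sided tests were used, with Benjamini-Hochberg adjustment over all genes and a threshold of 0.05. SE is limma's moderated standard error. Precision is limited by the number of arrays. The script was tested on simulated data. Genes were named by a rule: the 15 highest and 15 lowest by the smaller per-hairpin difference (both at least 1.5-fold), 8 each way with and without an uninduced difference, called list members, the 4 strongest members of each list, and all members of the PRC1.6, pluripotency and mesoderm lists; predicted and RNA-only models were skipped. Genes outside it are said to be chosen after their values were seen, apart from those of the 39 called genes that were in no list. The comparison, its members and the 26 gene lists were chosen with earlier results of these data known.

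The hairpin number pairs induced and uninduced arrays, because the labels give the same hairpin to both. Across genes, the deviations from the group mean of arrays with 1 number had a correlation of 0.181. Counts with the replicate block stand beside the results they move. The alternatives were an intensity trend, quantile normalization, median centring, filters on dim genes, other choices of probe set, the replicate block, a feeder covariate, other sets of arrays and leaving out each hairpin array.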

Additional observations from a re-analysis of the deposited data

Results flagged for a closer look

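Effects of the hairpins differed between induced and uninduced cells for 14 genes, by limma's test of the difference between both differences (adjusted p under 0.05). Values are log2 and positive where the hairpins' excess over scrambled was larger with dox. In the meiosis lists the change was 2.73 for Tex11, 2.31 for Syce1 and 1.55 for Hormad2. Among testis-expressed genes it was 2.75 for Rhox13 and 2.57 for Slc25a31. In the piRNA pathway it was 2.64 for Mael, 1.93 for Tdrkh, 1.84 for Mov10l1, 1.64 for Piwil2 and 1.62 for Ddx4. In the two-cell-like list it was 1.87 for Tdpoz3 and 1.69 for Usp17la, of which Usp17la had an uninduced difference of -0.58. Pcgf6 itself gave -2.33, and the predicted gene Gm4779 gave 1.82. Groups of 2 arrays or 1 array were too small to look for arrays far from the others.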

How the results depend on the processing

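The number of genes that passed between induced hairpins and induced scrambled, 39 in the fit described, was 21 over all probe sets (6 of the 39 genes and 15 probe sets outside the test by gene), 10 without the dimmest 50% of genes, 0 with the feeder covariate (428 with an unadjusted limma p under 0.05), 19 with only the 3 induced arrays and 71 with both scrambled arrays as control. Leaving out each hairpin array gave 19 to 36, lowest without either uninduced array; there the fit equals that of the 3 induced arrays, since the lone uninduced array adds nothing to the spread. The test of the change of difference with dox, 14 genes, gave 22 with median centring, 9 and 4 when the dimmest 25% or 50% of genes were left out, 0 over all probe sets (1851 with an unadjusted limma p under 0.05) and 0 with the feeder covariate (672 unadjusted). Leaving out each hairpin array gave 0 to 4. With the replicate block the counts were 66 for the induced difference, 23 for the change with dox and 17 for the uninduced difference, which was 0 under each other setting run. All 39 genes also passed with the replicate block. Some of the 15 probe sets outside the test by gene have identical values, so they are not 15 separate signals. Several carry the symbol of 1 predicted gene, Gm7982, with differences from 1.76 to 2.11. Over all probe sets more tests share the adjustment and the spread is estimated with probe sets of no gene; the covariate leaves 1 residual degree of freedom; the part of each was not tested. Intensity trend, quantile normalization and the mean of probe sets kept the induced count between 38 and 53. All 36 higher genes kept a difference above 0 in every setting that tested them. Of the 39 genes, 16 passed in each of the 4 fits that left out a hairpin array. Leaving out induced scrambled leaves no comparison, and leaving out uninduced scrambled changes neither the induced contrast nor its spread, so neither was run. Depth does not apply to arrays; dim genes carry less signal over background.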

Other observations

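The miR-302 cluster on chromosome 3, a group of embryonic stem cell microRNAs transcribed together with miR-367, was looked at after its values were seen. Its precursors read lower with the induced hairpins, but none passed. Apart from Mir302d with induced scrambled (5.87), all their values lay below the lower quartile of the arrays (5.5 to 5.56). They are thus dim, where signal over background is small. Mir302d read 4.90 and 5.09 against 5.87, with 5.23, 5.34 and 5.42 without dox (difference -0.88, limma adjusted p = 0.104). Mir302c differed by -0.86 (adjusted p = 0.131), Mir302b by -0.79 (adjusted p = 0.176), Mir302a by -0.65 (adjusted p = 0.615) and Mir367 by -0.40 (adjusted p = 0.464). Induced scrambled was the highest of the 6 arrays for each, as it was for 12% of tested genes. These are 1 transcript's parts, not independent genes. The mature 3p sequences from RefSeq (GRCm38.p6), at hand for all but miR-302a, are shown with bases 2 to 8, the seed, in capitals. miR-302b and miR-302d share it, in miR-302c the same letters lie 1 base earlier, and miR-367 has another.

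mmu-miR-302b-3p: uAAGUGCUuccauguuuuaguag

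mmu-miR-302c-3p: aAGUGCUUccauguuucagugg

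mmu-miR-302d-3p: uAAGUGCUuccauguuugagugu

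mmu-miR-367-3p: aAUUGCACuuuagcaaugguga

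Probe sets shared by 6 symbols of the Pramel family (Gm13057, Gm13040, Gm13043, Pramel31, Pramel20 and Pramel16), genes of the germ line and early embryo, read 7.63 and 7.80 against 4.92, with 5.18, 5.26 and 5.18 without dox. The difference was 2.79 (limma adjusted p = 0.03 over all probe sets). A single-symbol relative, Pramel1, was higher by 1.15 in the test by gene. These were chosen after their values were seen.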
